A study of Mus musculus with 16 samples.

Results

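The comparison described here sets mouse embryonic stem cells (ESCs) that lack Wdr5 and p53 and carry a wild-type WDR5 plasmid against the same kind of double knockout ESCs that carry the backbone plasmid without WDR5. It uses 4 of the 16 deposited ATAC-seq peak lists, 2 replicates of each group. ATAC-seq marks open DNA by where a transposase can insert, and a peak is a stretch where insertions pile up. All 4 lists come from ESCs with GFP knocked in at Rx (label Rx:GFP KI), which were kept in 2i+LIF, a medium that holds ESCs in a naive state. The group called WDR5WT below is labelled as stably transfected with the WDR5WT plasmid, which the series title describes as human WDR5. The group called backbone is labelled DKOEV. Both groups lack p53, so the comparison holds the p53 loss constant and varies the plasmid. The labels do not say whether the lines are clones or whether the replicates are separate cultures, so p-values measure only the spread between these lists. Neither the labels nor the lists give the level of the WDR5 protein.

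Chromosomes 1 to 19, X and Y were used, and their peaks were merged into 1 region where they overlapped by 1 bp or more. The 4 lists gave 37330 merged regions. A region with a peak in both WDR5WT lists and in neither backbone list was called WDR5WT-only, the reverse was called backbone-only, and a region with a peak in all 4 lists was called shared. The presence of peaks chose these classes, so their sizes are a description and carry no test.

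WDR5 is a WD40-repeat scaffold protein. It is a core subunit of the COMPASS and MLL complexes, which methylate lysine 4 of histone H3 at promoters and enhancers, and it also sits in the NSL, ATAC, PRC1.6 and NuRD complexes. In ESCs it is known for its part in self-renewal and in the expression of ribosomal protein genes. Promoters rich in CpG dinucleotides are open in most cell types, while distal open regions tend to be enhancers that differ between cell types.

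Promoter sequences that carry the contrast are printed here, taken from RefSeq on GRCm38.p6 (the assembly of mm10). Each is the 250 bases before an annotated start, 5′ to 3′ on the strand of the gene. The first set holds genes with a peak in all 4 lists. Pgk1 (chrX:106186850-106187099, plus strand) encodes a glycolytic kinase and Gsk3b (chr16:38088751-38089000, plus strand) a kinase of the Wnt pathway.
Pgk1: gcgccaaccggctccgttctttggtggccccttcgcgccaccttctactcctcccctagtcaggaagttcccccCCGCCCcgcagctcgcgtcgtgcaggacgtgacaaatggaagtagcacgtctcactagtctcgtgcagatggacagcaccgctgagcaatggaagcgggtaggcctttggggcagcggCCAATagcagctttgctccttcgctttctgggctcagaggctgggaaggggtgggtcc
Gsk3b: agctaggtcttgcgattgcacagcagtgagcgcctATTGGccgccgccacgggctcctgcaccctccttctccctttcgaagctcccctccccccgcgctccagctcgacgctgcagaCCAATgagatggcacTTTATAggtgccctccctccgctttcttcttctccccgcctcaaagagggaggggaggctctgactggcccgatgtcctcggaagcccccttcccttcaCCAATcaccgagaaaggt
The second set holds genes with a WDR5WT-only peak. Klf4 (chr4:55532476-55532725, minus strand) encodes a naive pluripotency factor, Vim (chr2:13574061-13574310, plus strand) an intermediate filament protein, Rpl37 (chr15:5116363-5116612, plus strand) a ribosomal protein and Mcm7 (chr5:138171884-138172133, minus strand, the start farther upstream of the pair in the table) a subunit of the replicative helicase.
Klf4: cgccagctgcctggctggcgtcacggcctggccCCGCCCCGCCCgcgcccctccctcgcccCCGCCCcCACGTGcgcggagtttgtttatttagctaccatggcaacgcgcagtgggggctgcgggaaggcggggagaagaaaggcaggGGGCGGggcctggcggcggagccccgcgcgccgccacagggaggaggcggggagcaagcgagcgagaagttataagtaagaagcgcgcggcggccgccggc
Vim: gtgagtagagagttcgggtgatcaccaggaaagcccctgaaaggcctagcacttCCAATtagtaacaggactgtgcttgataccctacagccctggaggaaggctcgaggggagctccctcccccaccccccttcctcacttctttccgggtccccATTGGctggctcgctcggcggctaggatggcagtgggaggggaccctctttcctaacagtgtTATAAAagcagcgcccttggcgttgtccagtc
Rpl37: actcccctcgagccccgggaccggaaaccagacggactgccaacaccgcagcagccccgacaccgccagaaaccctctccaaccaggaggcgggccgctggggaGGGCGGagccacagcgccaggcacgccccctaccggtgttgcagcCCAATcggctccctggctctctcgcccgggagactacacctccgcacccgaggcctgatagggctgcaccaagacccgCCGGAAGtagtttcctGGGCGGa
Mcm7: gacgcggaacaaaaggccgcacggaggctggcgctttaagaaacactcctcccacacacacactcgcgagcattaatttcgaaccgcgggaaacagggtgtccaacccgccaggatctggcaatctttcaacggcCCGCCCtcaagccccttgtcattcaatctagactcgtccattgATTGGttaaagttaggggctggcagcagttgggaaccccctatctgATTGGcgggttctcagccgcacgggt
The last sequence is a promoter with a backbone-only peak, that of the predicted gene Gm40367 (chr6:47662342-47662591, plus strand), shown because it lies in one of the windows crowded with peaks that are described below. It is a repeated sequence: the same 250 bases precede starts of the neighbouring genes Gm40364, Gm36327 and Gm40369.
Gm40367: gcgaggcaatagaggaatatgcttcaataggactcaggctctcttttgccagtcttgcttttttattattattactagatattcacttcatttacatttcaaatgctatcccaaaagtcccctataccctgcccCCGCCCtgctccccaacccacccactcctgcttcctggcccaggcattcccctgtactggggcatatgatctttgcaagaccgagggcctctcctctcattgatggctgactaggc
Capitals mark matches on either strand to 7 motifs: the CCAAT box (CCAAT), the GC box (GGGCGG), an ETS motif (CCGGAAG), the E-box (CACGTG), the palindromic NRF1 motif, the TATA box (TATAAA) and the octamer (ATTTGCAT). No motif of the 7 contains another, and where matches overlap the capitals run together. A match is a string of letters and is no evidence of binding.

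The printed promoters differ in CpG content along with their class. Over the full 300 bases of the table entry (250 before the start and 50 after), Pgk1 holds 24 CpG, Gsk3b 21, Klf4 40, Vim 11, Rpl37 23 and Mcm7 24, against 3 in Gm40367. The wider set was alike. Of 21263 promoters of 17492 protein-coding genes, 8796 had a WDR5WT-only peak and a median of 22 CpG, 173 had a shared peak and a median of 23, and 27 had a backbone-only peak and a median of 3. These 27 had quartiles of 2 and 22 CpG, so some were CpG-rich, and several of them are copies of 1 sequence. The 9837 promoters with no peak in the 4 lists had a median of 4, and all promoters a median of 13. Among the 6875 promoters with 0 to 5 CpG, 4.89% and 5.27% had a peak in WDR5WT replicates 1 and 2, and 0.233% and 0.364% in backbone replicates 1 and 2. Among the 2349 promoters with 21 to 25 CpG, the shares were 79.4% and 86.9% in WDR5WT, and 2.6% and 10.8% in backbone. Both groups therefore had most of their promoter peaks at CpG-rich promoters, at very different heights.

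**Figure D1:**
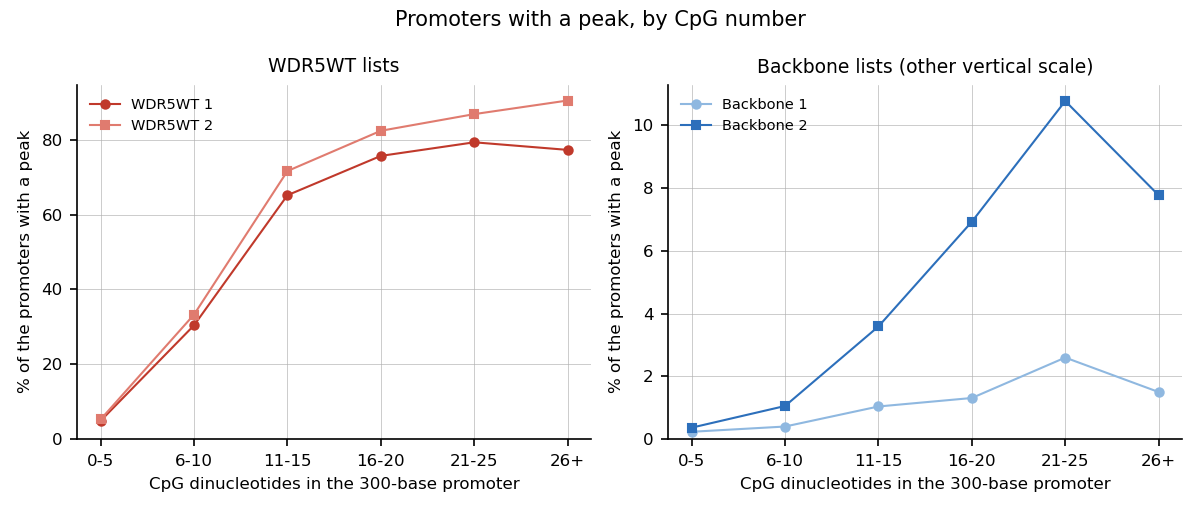
Share of RefSeq promoters (300 bases) with a peak, in percent, by the number of CpG dinucleotides in the promoter, 1 line per list, with WDR5WT lists on the left and backbone lists on the right on a different vertical scale. Shares are low at 0 to 5 CpG in all 4 lists and higher at CpG-rich promoters, reaching 90.5% in WDR5WT replicate 2 and 10.8% in backbone replicate 2.

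Shared promoters held a CCAAT box more often than WDR5WT-only promoters did. The share with CCAAT was 57.2% of the 173 shared promoters, 39.7% of the WDR5WT-only ones and 38.2% of all promoters. The 874 promoters with a peak in both WDR5WT lists and in backbone replicate 2 alone were close to the shared ones, at 55.0%. The 761 promoters that were WDR5WT-only at equal list length, among the strongest peaks, had CCAAT in 44.2%. GC boxes were in 83.8% of shared, 70.3% of WDR5WT-only and 46.2% of all promoters. The TATA box went the other way, with 4.05% of shared, 5.76% of WDR5WT-only and 20.4% of promoters with no peak. The octamer, the motif of the POU factors that include OCT4, was in 1.43% of WDR5WT-only promoters and 1.66% of all promoters.

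Several features of the lists bear on every result below. The lists hold no read counts, and the depth behind each is unknown. The signal of a peak, the authors' own value of unstated scaling, is always above 200 in the ESC lists and is used here to rank peaks within a list. Backbone ESC lists had their strongest peak at 93394 and 97859, and WDR5WT lists at 54370 and 57978. The widest peak was 22731 and 19984 bp in backbone and 15914 and 7737 bp in WDR5WT, and the highest −log10 p was 33.3 and 34.3 against 15.7 and 15.7. Across the 12 ESC lists, these 2 measures put backbone, S91K-Y191F and parental lists on one side (18810 to 29214 bp) and p53 knockout and WDR5WT lists on the other (7727 to 15921 bp). The comparison crosses that divide, so the plasmid and whatever separates the 2 sets of lists cannot be told apart.

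The sets also differ in small blocks that are crowded with peaks. In 22 windows of 100 kb, each of the 4 parental ESC and S91K-Y191F lists had at least 10 peaks. Of these windows 11 are on chromosome 8, and together they span 2.2 Mb. They held 505 of the 1535 peaks (32.9%) of backbone replicate 1 and 507 of the 2492 (20.3%) of replicate 2, but 101 of 29779 (0.339%) and 105 of 32709 (0.321%) in WDR5WT. The 4 p53 knockout lists had 0.312% to 0.384%. Results are therefore given with and without these windows. They were chosen from lists outside the comparison, but from lists on the backbone side of the divide. Windows crowded only in p53 knockout or WDR5WT lists were not sought, so the choice favours a higher share in backbone.

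WDR5WT ESCs had many more peaks than backbone ESCs. The lists held 29779 and 32709 peaks in WDR5WT (31244 ± 2072, SD, n = 2) and 1535 and 2492 in backbone (2013.5 ± 677, SD, n = 2), a ratio of means of 15.5. The groups did not overlap. The difference in log10 peak number was 1.20 (4.49 ± 0.0288 against 3.29 ± 0.149), with p = 0.333 by a two-sided exact permutation test over libraries, the smallest p that 2 lists against 2 allow. The median peak was of like width, 668 and 658 bp in WDR5WT and 654 and 602 bp in backbone, so the peaks covered 22704 and 24926 kb against 1499 and 2078 kb.

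**Figure D2:**
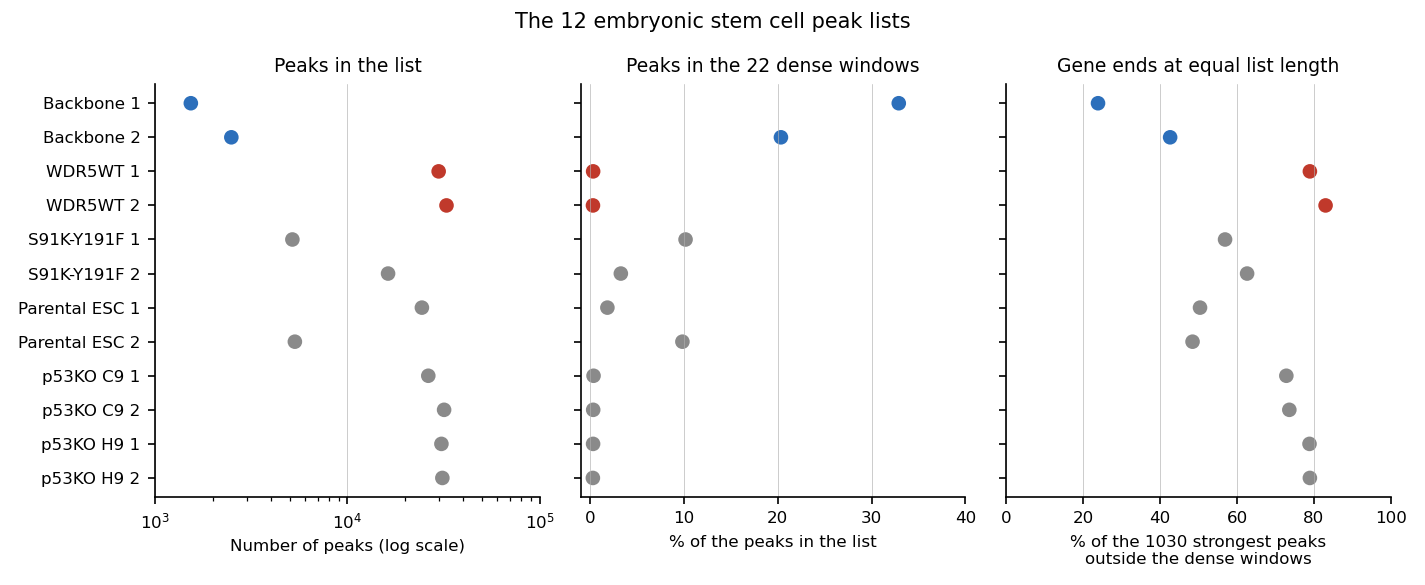
Each point is 1 of the 12 ESC peak lists, with WDR5WT in red, backbone in blue and the other groups in grey. Panels give the number of peaks on a log scale, the percentage of peaks inside the 22 dense windows and the percentage of the 1030 strongest peaks outside those windows that lie within 1 kb of a gene end. The 2 WDR5WT lists stand beside the 4 p53 knockout lists in all 3 panels, and the backbone lists are at the far end of each. Backbone replicate 1 holds 1030 peaks in all outside those windows.

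Most of the merged regions were WDR5WT-only. They numbered 24182, or 64.8% of all regions, against 818 backbone-only regions (2.19%) and 371 shared regions (0.994%). A further 935 regions were in both WDR5WT lists and backbone replicate 2, and 30 were in both WDR5WT lists and backbone replicate 1. Outside the dense windows there were 24166 WDR5WT-only, 476 backbone-only and 322 shared regions. Only 17 WDR5WT-only regions (0.0703%) lay in the windows, against 342 of the backbone-only regions (41.8%).

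Cutting the lists to equal length makes the counts of the 2 group-specific classes close by construction, so they say nothing of an excess, but they show how far the strongest peaks coincide. When each list was reduced to its 1535 strongest peaks, 823 regions were WDR5WT-only (24.9% of 3306), 850 were backbone-only (25.7%) and 155 were shared (4.69%). With the dense windows removed and each list at 1030 peaks, the counts were 507 (22.3% of 2270), 501 (22.1%) and 127 (5.59%). The strongest peaks of the 2 groups were nevertheless largely at different places, although both lengths take in the whole list of backbone replicate 1. At 1030 peaks, 77.9% of the peaks of WDR5WT replicate 1 overlapped a peak of replicate 2, and 66.0% of those of backbone replicate 1 overlapped one of backbone replicate 2, while overlaps between the groups were 14.4% to 30.3%. Of the 850 backbone-only regions at equal length, 667 (78.5%) had no peak in either full WDR5WT list, so most were not merely ranked lower there.

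The strongest WDR5WT peaks lay at gene ends, here meaning within 1 kb of the first or last base of a protein-coding gene. At 1535 peaks, 75.7% and 81.1% of WDR5WT peaks were at gene ends, against 17.9% and 33.4% of backbone peaks. The group means were 78.4% ± 3.82 and 25.7% ± 11 (SD, n = 2 each), a difference of 52.7 percentage points with exact permutation p = 0.333, again the smallest possible. Outside the dense windows the values were 78.9% and 83.0% against 23.9% and 42.6%. In the full lists the groups overlapped, with 34.5% and 35.1% in WDR5WT and 17.9% and 37.3% in backbone, a difference of 7.21 points (exact permutation p = 1), and of 0.419 points outside the dense windows (exact permutation p = 1). The 2 backbone lists differed from each other as much as this, and without backbone replicate 1 the difference was -2.47 points. The difference at gene ends therefore appeared in lists cut to equal length, and the full lists did not separate the groups. At equal length, though, the strongest part of each WDR5WT list is set against the whole list of backbone replicate 1. Gene-end share fell with rank within WDR5WT replicate 1, from 69.8% in its strongest 10% to 15.5% in its weakest 10%. Among the 100 strongest peaks, 77 and 78 were at gene ends in WDR5WT and 16 in each backbone list, while 3 in each WDR5WT list and 55 and 53 in backbone were in the dense windows.

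WDR5WT-only regions were spread over gene ends, gene bodies and distal sites. Gene ends held 8901 (36.8%), gene bodies 6078 (25.1%), intergenic sites within 100 kb of a gene end 5405 (22.4%) and sites farther off 3798 (15.7%). Backbone-only regions were mainly intergenic, with 439 of 818 (53.7%) within 100 kb of a gene, and 76 (9.29%) at gene ends. Shared regions had the highest share at gene ends, 179 of 371 (48.2%). The WDR5WT-only regions had a median width of 806 bp, the backbone-only regions 808 bp and the shared regions 1485 bp.

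Where a backbone peak lay at a gene end, WDR5WT lists mostly had it too. Of the gene-end peaks outside the dense windows, 180 of 246 (73.2%) in backbone replicate 1 and 809 of 894 (90.5%) in replicate 2 overlapped a peak in both WDR5WT lists. Away from gene ends the shares were 22.6% and 42.3%, and inside the dense windows 10.9% and 12.4%. Outside the dense windows, the gene-end peaks of backbone ESCs were thus largely a subset of the WDR5WT peaks. Backbone peaks elsewhere, those in gene bodies included, were largely not.

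That subset was drawn from the strong end of the WDR5WT lists. In the strongest 10% of WDR5WT replicate 1 by signal, 7.52% of peaks overlapped a peak of backbone replicate 1 and 28.9% one of backbone replicate 2. In the next 10% the shares were 1.61% and 7.35%, and in the weakest 0.437% and 0.403%. WDR5WT replicate 2 gave 6.88% and 26%, then 1.31% and 7.0%, and 0.612% and 0.673% at the weak end. Peaks in shared regions were at the 94.2 and 94.8 percentile of the WDR5WT lists by the median, against 54.8 and 58.2 for WDR5WT-only regions. Short ESC lists of other groups gave the same form at a higher level. The list of 5174 peaks of S91K-Y191F replicate 1 held 60.5% of the strongest 10% of WDR5WT replicate 1, and the list of 5330 peaks of parental replicate 2 held 60.9%.

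**Figure D3:**
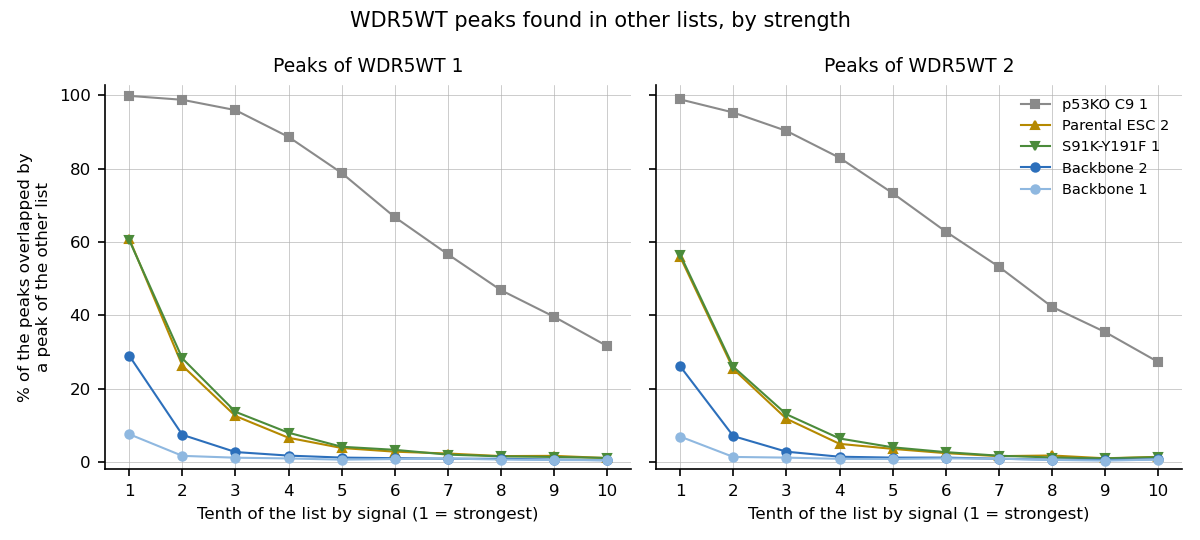
Share of WDR5WT peaks overlapped by a peak of another ESC list, in percent, by steps of 10% of the WDR5WT list ordered by signal, for WDR5WT replicate 1 on the left and replicate 2 on the right. Overlap with backbone lists is 28.9% or less in the strongest step and near 0 in the weaker steps, while clone C9 replicate 1 overlaps nearly all of the strongest step.

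The WDR5WT-only regions were found in lists that the rule did not use. Lists of the p53 knockout clones, which keep Wdr5, held 75.8% and 81.7% (clone C9) and 85.0% and 85.1% (clone H9) of the 24182 regions. All 4 of them together held 67.2%, and 6.3% were in none of the 4. Parental ESC lists of 24367 and 5330 peaks held 60.9% and 9.5%. The S91K-Y191F lists, from double knockouts with a mutant WDR5, held 9.9% and 43.8%, with 5174 and 16257 peaks. Shares thus moved with list length within both groups. Lists of double knockout embryoid bodies, which also lack Wdr5 and p53, held 81.7% and 86.3%, and 80.2% were in both. These embryoid body lists are several times longer and were made by another procedure, so the shares are not comparable with those of ESC lists. At gene ends, 95.8% of WDR5WT-only regions were in both double knockout embryoid body lists, and away from gene ends 71.1%. Of the 24182 regions, 0.8% were in none of the 12 lists outside the comparison.

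Backbone-only regions were found in another set of lists. The S91K-Y191F lists held 88.3% and 79.3% of the 818 regions and the parental ESC lists 64.7% and 85.5%. The p53 knockout lists held 0.4% to 1.3% and the embryoid body lists 0.9% to 1.5%. With equal list length and without the dense windows, S91K-Y191F lists held 61.3% and 33.3%, parental lists 21.2% and 59.1%, and p53 knockout lists 0.8% to 2.2%. Backbone-only regions were therefore frequent in parental ESCs, which keep Wdr5 and p53, as well as in S91K-Y191F ESCs, and followed the divide by peak width described above. Each of the 8 other ESC lists held 95.1% to 98.9% of the shared regions.

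**Figure D4:**
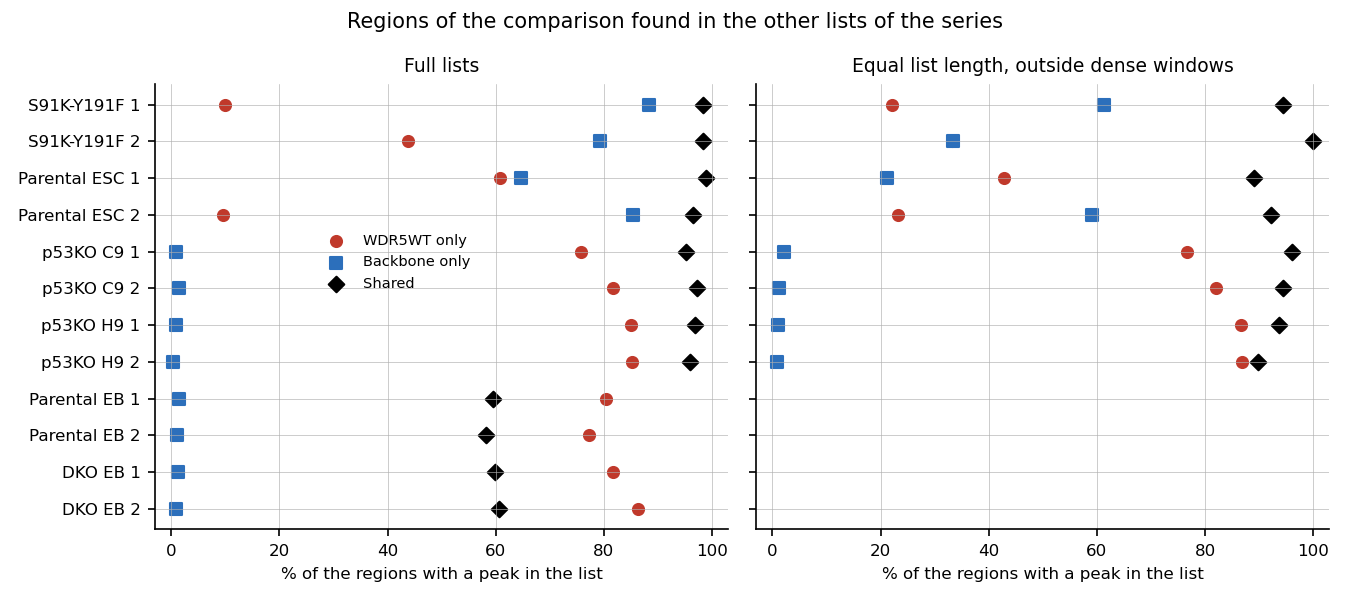
Share of WDR5WT-only (red circles), backbone-only (blue squares) and shared (black diamonds) regions with a peak in each list outside the comparison, in percent, over full lists on the left and, for ESC lists, with each list reduced to its 1030 strongest peaks outside the dense windows on the right. Backbone-only regions are near 0 in the 4 p53 knockout lists and frequent in the S91K-Y191F and parental ESC lists in both panels.

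Backbone-only regions lay in the dense windows in 342 of 818 cases and elsewhere in the rest. Chromosome 8 held 30.9% of them, against 8.23% of WDR5WT-only regions. Outside the dense windows it held 7.35% of the 476 backbone-only and 8.21% of the WDR5WT-only regions, so the excess on this chromosome lay in the windows. Pseudogenes were overlapped by 7.70% of backbone-only and 1.35% of WDR5WT-only regions. A cluster of 48 genes annotated as rRNA lies at positions 123538784 to 123622046 of chromosome 8 beside Gas8, and 24 backbone-only regions lay on its genes. The number of those 48 genes with a peak was 29 and 33 in backbone, 23 and 26 in S91K-Y191F, and 23 and 22 in parental ESC lists. It was 1 and 1 in WDR5WT, at most 1 in each p53 knockout list and 0 in each embryoid body list. The genes with the most backbone-only regions assigned were the predicted genes Gm15319 with 48, Gm21119 with 36 and, on chromosome 6, Hrh1, a histamine receptor gene, with 28. Assignment reaches up to 100 kb, and the end peak of Hrh1 itself was WDR5WT-only, at 281 and 333. Backbone-only end peaks at 6 neighbouring predicted genes (Gm40363, Gm40364, Gm40365, Gm40367, Gm40369 and Gm36327) lay in 1 block of chromosome 6 that also holds Rn4.5s, the gene of the rodent 4.5S RNA, a small non-coding RNA that the table lists under rRNA. How reads that fit several places were treated in each list is not given in the sources used here.

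Gene-end peaks were next counted per protein-coding gene. Of 21887 genes, 9558 (43.7%) had an end peak in both WDR5WT lists and neither backbone list, 48 (0.219%) had the reverse, 208 (0.95%) had one in all 4 lists, and 803 had one in both WDR5WT lists and 1 backbone list. At equal list length the counts were 770 (3.52%) WDR5WT-only, 86 (0.393%) backbone-only and 133 (0.608%) shared. Of the 86, 42 had an end peak in a full WDR5WT list, below the rank reached at equal length. In the full lists the share of WDR5WT-only genes in any gene list has to be read against 43.7%. Signals below are given for WDR5WT replicates 1 and 2, then for backbone replicates 1 and 2 where these have a peak, and sizes are not compared between lists.

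The pluripotency genes, which mark the labelled cell type, carried end peaks at most members in WDR5WT and at a minority in backbone. WDR5WT lists each had an end peak at 23 of the 30 naive and core genes (76.7%), beside 49.5% and 54.9% of all protein-coding genes. Backbone lists had one at 1 (3.33%) and 5 (16.7%), beside 1.25% and 4.91% of all genes, so the share was above that of all genes in all 4 lists. This was not particular to pluripotency genes. Among 30 ubiquitously expressed genes the shares were 83.3% in each WDR5WT list and 6.67% and 10% in backbone. Of the 30, 17 (56.7%) had a WDR5WT-only end peak, 4 a peak in 1 backbone list as well, 1 in all 4 lists and 6 in none. Zfp42 (Rex1), a marker of naive ESCs on chromosome 8, was that 1 gene. Its end peak had a signal of 1983 and 2122 in WDR5WT and 236 and 572 in backbone, and lay at the 93.4 and 92.5 percentile of the WDR5WT lists and the 13.0 and 70.2 percentile of the backbone lists. It counted as backbone-only at equal list length, because its ranks of 1959 and 2439 in WDR5WT lie beyond the strongest 1535 peaks, so the equal-length class there says nothing of absence.

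Other naive factors were seen in WDR5WT only, or nearly so. Klf4 had 1258 and 2046 in WDR5WT and no peak in either backbone list. Nr0b1 (Dax1), an orphan nuclear receptor of ESCs, had 1745 and 1892, and Tdgf1, a Nodal co-receptor, 1986 and 1349, both without a backbone peak. Klf5 had 2241 and 2730 in WDR5WT, no peak in backbone replicate 1 and 286 in replicate 2. Klf2 followed the same form with 1890 and 2297, no peak, and 224. The core factors had weaker end peaks in WDR5WT and none in backbone, at 347 and 589 for Nanog, 208 and 603 for Pou5f1 and 227 and 934 for Sox2. Esrrb had no end peak in any of the 4 lists. Klf2, Nanog, Pou5f1, Sox2 and Esrrb fall outside the naming rule and were chosen as textbook members of the network.

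The distal regions around Klf4 were also WDR5WT-only. Besides the peak at the gene, regions 11754, 46370, 48885 and 62313 bp from its nearest end on chromosome 4 had signals of 645 to 1142 across both WDR5WT lists, with no peak in backbone. All 4 of these distal regions were in 6 of the 8 other ESC lists. Around Zfp42 a distal region 13511 bp away was shared, with 2075 and 2231 in WDR5WT, and 8 other regions were WDR5WT-only.

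Markers of cells outside the naive state were counted in the same way. WDR5WT-only end peaks were at 12 of 19 formative and primed genes, 18 of 20 neuroectoderm genes, 11 of 18 eye field genes, 10 of 19 primitive streak and mesoderm genes, 7 of 15 endoderm genes, 6 of 15 trophectoderm genes and 4 of 15 fibroblast genes. Shares of the last 4 lists were 26.7% to 52.6%, around the 43.7% of all genes. Neither backbone list had an end peak at any gene of these 7 lists, beside 1.25% and 4.91% of all genes. Accessibility of such promoters does not tell expression, and many are CpG-rich developmental promoters that are open in ESCs. Zic2, a zinc finger factor of formative cells and neuroectoderm, had 2837 and 3866, and Vim 3480 and 3844. Sox21, a neural SOX factor, had 2204 and 2894, and Mitf, a factor of the retinal pigment epithelium, 2224 and 2595. Sox17, an endoderm factor, had 4660 and 4823, near the top of both WDR5WT lists. Its peak in replicate 1 (chr1:4491687-4493898) lay near the gene end at 4490928 and not near the other end at 4497426. No annotated start was at hand for Sox17, so this end peak is not shown to be at its promoter. Rax, the gene tagged in these cells and named here for that reason, had 996 and 1316 in WDR5WT and no backbone peak.

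Of the 68 WDR5WT-only entries of these 7 lists, 46 had an end peak in all 4 p53 knockout lists. This was a lower share than the 76.8% (7340 of 9558) of all genes with a WDR5WT-only end peak. Zic2, Vim and Sox17 were among them. Zic2 had 2654, 3191, 2224 and 3617 in the 4 lists of clones C9 and H9, Vim 2780, 2866, 3481 and 3899, and Sox17 2818, 3582, 5006 and 4962. Klf4 was lower in clone C9, at 669 and 706, than in clone H9, at 1440 and 1684, and among the parental and S91K-Y191F lists had a peak in parental replicate 1 alone, at 494.

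**Figure D5:**
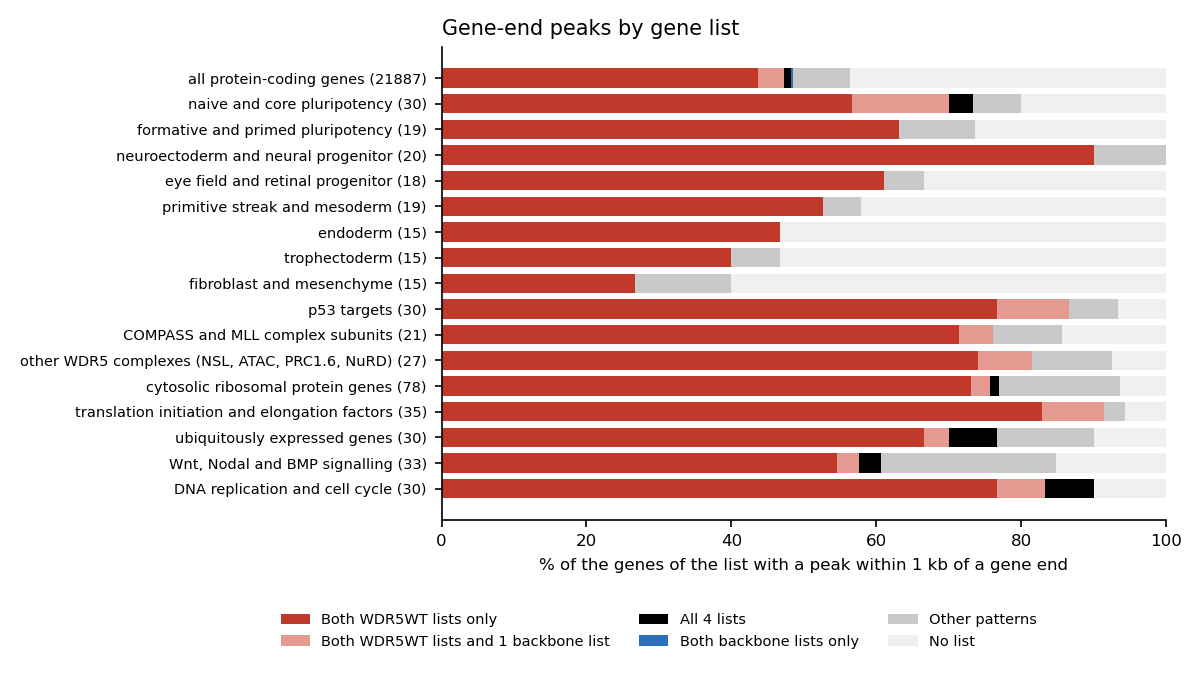
Share of the genes of each list, in percent, by the lists in which they had a peak within 1 kb of a gene end, with the number of genes in parentheses. WDR5WT-only genes (red) make up 43.7% of all protein-coding genes and 26.7% to 90% of the 16 lists, and no listed gene was found in the backbone lists only.

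Genes of the WDR5 complexes and of p53 signalling were in the same position. COMPASS and MLL subunits had a WDR5WT-only end peak at 15 of 21 genes (71.4%) and members of the other WDR5 complexes at 20 of 27 (74.1%). The share over all protein-coding genes was 43.7%. Kdm6a (UTX), the H3K27 demethylase of the MLL3 and MLL4 complexes, had 1780 and 1934 in WDR5WT and no peak in backbone. Chd8, a chromatin remodeller that binds WDR5, had 2259 and 2142, and Myc, a factor that WDR5 is known to recruit to chromatin, 1929 and 1954, also without backbone peaks. Max, the partner of Myc and a PRC1.6 subunit, had 2442 and 2939 in WDR5WT and 299 in backbone replicate 2 only. Of 30 p53 targets, 23 (76.7%) were WDR5WT-only, and both groups lack p53. The shares of these 3 lists were not particular to them. Ubiquitously expressed, ribosomal protein, DNA replication and translation factor genes had 66.7% to 82.9%. Ddit4l had 3553 and 3585, Polk, a translesion polymerase, 2559 and 2901, and Ccng1, cyclin G1, 2633 and 2545. Plk2, a stress-induced kinase, had 3549 and 2999 in WDR5WT and 265 in backbone replicate 2.

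The deleted genes themselves give no check of the labels. Wdr5 had an end peak in WDR5WT replicate 2 (384) and in none of the other 3 lists, and in 0 of the 4 p53 knockout and 0 of the 2 parental ESC lists. Trp53 had one in WDR5WT replicate 2 (438) and in none of the other 3 lists. That peak lay 781 bp from the annotated start, and the Trp53 promoter itself had no peak in the 4 lists. Among ESC lists outside the comparison, Trp53 had an end peak in S91K-Y191F replicate 2 (568) and in parental replicate 1 (474). It also had one in both lists of p53 knockout clone H9 (383 and 290). All 4 embryoid body lists had an end peak at Wdr5 and at Trp53. These include both double knockout lists, which are labelled as lacking the 2 genes. The labels do not say which part of either gene was deleted, and a promoter left in place can be open.

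Translation and cell cycle genes showed the same pattern. WDR5WT-only end peaks were at 57 of 78 cytosolic ribosomal protein genes (73.1%), 29 of 35 translation factor genes (82.9%), 23 of 30 DNA replication and cell cycle genes (76.7%), 20 of 30 ubiquitously expressed genes (66.7%) and 18 of 33 Wnt, Nodal and BMP genes (54.5%). The share over all protein-coding genes was 43.7%. At equal list length the WDR5WT-only counts were 3, 1, 2, 0 and 1 (3.85%, 2.86%, 6.67%, 0% and 3.03%), beside 3.52% of all protein-coding genes. Few of these genes were thus WDR5WT-only among the strongest 1535 peaks, as was so over all genes. Rpl37 had 2340 and 2847, Rpl7 2813 and 3503, Eif4g2, a translation initiation factor gene, 2937 and 3077, and Mcm7 2693 and 2743, all without a backbone peak. Fzd1, a Wnt receptor gene, had 4139 and 4485 and was WDR5WT-only at equal length too. Rps29 had a peak in all 4 lists, at 2502 and 2338 in WDR5WT and 343 and 476 in backbone. Gins2, a subunit of the replicative helicase complex, had 2209 and 2909 against 506 and 646, and Cdk4, the G1 kinase, 1091 and 1565 against 238 and 273.

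Gsk3b and Pgk1 show 2 kinds of shared promoter. The Gsk3b end peak had 4239 and 5036 in WDR5WT, ranks 136 and 90, and 292 and 874 in backbone, ranks 1066 and 435. It ranked 92 to 199 in the 8 other ESC lists. The Pgk1 peak had 4094 and 4276 in WDR5WT, ranks 157 and 215, and 2103 and 2513 in backbone, ranks 160 and 134. In the S91K-Y191F lists, the third group with a plasmid, Pgk1 ranked 96 and 62. In the 6 lists of ESCs without a labelled plasmid its rank was 470 to 4528, with signals of 942 to 1924. By raw rank, which depends on list length, the 6 plasmid lists thus all had Pgk1 above the other 6. Percentiles within each list did not separate backbone from the lists without a plasmid. They were 89.6 and 94.6 in backbone and 81.4 to 94.6 in the 6 lists without a plasmid. In S91K-Y191F they were 98.2 and 99.6, and in WDR5WT 99.5 and 99.3. Among lists of like length, Pgk1 had rank 96 of 5174 peaks in S91K-Y191F replicate 1 and rank 470 of 5330 in parental replicate 2. The labels do not give the plasmid sequence, and whether it holds a Pgk1 promoter that would add reads here was not tested.

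The genes with the most WDR5WT-only regions assigned were Chd9, Mef2c, Sall1 and, with equal counts, Magi2, Spry2 and Tns3. Chd9, a chromatin remodeller gene, had 16 such regions, with an end peak at 3037 and 3078 and the strongest of the rest, inside the gene, at 2984 and 3489. Mef2c, a muscle and neural factor gene, had 14 and no end peak, with 2 strong distal regions 63113 and 77601 bp from the nearest gene end at 2560 and 3269 and at 2004 and 2071. Both of these distal regions were in 7 of the 8 other ESC lists and in all 4 embryoid body lists. The promoter of an annotated start inside Mef2c (chr13:83523406-83523655) had a WDR5WT-only peak, which the windows at the gene ends do not cover. Sall1, a zinc finger gene of ESCs, had 12 regions with an end peak at 2508 and 3333, and Magi2 and Spry2, an FGF signalling inhibitor gene, 11 each, as had Tns3. Magi2 also had no end peak, but promoters of annotated starts inside it had WDR5WT-only peaks.

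Gene ends with a WDR5WT-only peak mostly had a peak in other lists too. Of the 9558 genes, 7340 (76.8%) had an end peak in all 4 p53 knockout lists, 1707 (17.9%) in both parental ESC lists and 1799 (18.8%) in both S91K-Y191F lists. Over all protein-coding genes these shares were 38.6%, 12.3% and 12.9%. In both double knockout embryoid body lists it was 9254 (96.8%), and in both parental ones 9261 (96.9%), beside 62.8% and 63.8% of all protein-coding genes. With every list at its 1030 strongest peaks outside the dense windows, the double knockout embryoid body lists held 7.69% and 3.75% of the 507 WDR5WT-only regions. Parental embryoid body lists held 5.33% and 7.10% of these regions. Of the 127 shared regions the double knockout lists held 9.45% and 3.94%. The low share was thus not particular to WDR5WT-only regions or to the double knockout. The double knockout embryoid bodies are labelled as lacking Wdr5 and p53, with no rescue plasmid named. Their full lists held 96.8% of the gene ends with a WDR5WT-only peak. Culture, list procedure and plasmid differ between the 2 sample types, and their part in this difference was not tested.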

How the data were processed

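ATAC-seq peak lists were analysed for 2 WDR5WT and 2 backbone ESC libraries, with the other 12 lists as outside measurements. Per the submitters' processing notes, the tools were DESeq2, MACS2 2.1.2, Genrich 0.6, Bowtie2 2.3.5 and SAMtools on build mm10, and the role of each tool, the caller of the ESC lists and the annotation are not given in the sources used here. Each deposited ESC list gives a per-peak score, a −log10 p and a signal whose scaling is not stated and whose lowest values are just above 200. The deposited embryoid body lists give a score, a ratio (fold enrichment) and −log10 p and q values, and their names say that the authors removed blacklisted regions. The lists hold no counts, so the depth is unknown and neither count tests nor counting intervals were possible.

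After keeping chromosomes 1 to 19, X and Y, peaks were merged at an overlap of at least 1 bp (Python 3.11.15, numpy 2.4.6, pandas 2.3.3). Equal list length means the 1535 strongest peaks of each list by signal, or 1030 outside the 22 dense windows. Genes are the 21887 protein-coding genes of RefSeq GRCm38.p6, whose table has no strand. A gene-end peak therefore lies within 1000 bp of either end, and annotated starts, known for genes in the promoter table, were used as an alternative. Regions were assigned to the nearest gene end within 100 kb. All 430 genes of the 16 lists were found in the table. Two-sided exact permutation tests compared values per library (scipy 1.17.1), and the merging was tested on simulated data. Whether replicate numbers pair the libraries could not be told, and the main tests did not use them.

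The members, gene lists and tests were chosen with earlier results of these data known. Named genes are Wdr5, Trp53, per gene list the 3 WDR5WT-only and 2 shared genes with the strongest end peaks and up to 2 genes per direction at equal length, and the 5 genes with the most regions of each kind, with the genes whose end peaks were backbone-only. Genes named outside this rule are said to be so. Alternatives were equal list length, the 50% of peaks with the highest −log10 p, a 50% overlap, other windows, leaving out the dense windows, the replicate block and leaving out each library. Equal length outside the dense windows and annotated starts were added after seeing the data.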

Additional observations from a re-analysis of the deposited data

How the results depend on the processing

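The counts of regions and genes moved most with list length, and equal length balances the 2 group-specific counts by construction. WDR5WT-only regions numbered 24182 in the full lists, 823 at equal list length, 12145 among the 50% of peaks with the highest deposited −log10 p and 507 at equal length outside the dense windows (24212 to 31299 when 1 library was left out). Backbone-only regions numbered 818, and 483 in the upper 50%, 476 outside the dense windows and 501 at equal length outside them (826 to 1122 with 1 library left out). Shared regions numbered 371, and 155 at equal length, 114 in the upper 50% and 127 at equal length outside the dense windows (380 to 1313, the highest without backbone replicate 1). Genes with a WDR5WT-only end peak numbered 9558, and 770 at equal length (9570 to 11007). Genes with a backbone-only end peak numbered 48, and 86 at equal length (48 to 67). Genes with a shared end peak numbered 208, and 133 at equal length (208 to 999, the highest without backbone replicate 1). In each case the cause was not tested beyond the smaller number of peaks or libraries that the alternative leaves. The difference in gene-end share of 7.21 percentage points ranged from -2.47 without backbone replicate 1 to 16.9 when 1 library was left out, and was 0.419 outside the dense windows, 52.7 at equal length and 47.7 at equal length outside the windows. The difference in log10 peak number stayed between 1.10 and 1.34. With the replicate number as a block the log10 difference was 1.20 (exact permutation p = 0.5) and the gene-end difference 7.21 points (exact permutation p = 1). Both WDR5WT lists overlapped backbone replicate 2 more than replicate 1. Replicate 2 is the longer list, so these overlaps cannot show whether the numbers pair the libraries. Of the 77 named genes, 44 had another number of lists with an end peak at equal length, and none changed direction from a nonzero value.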

Other observations

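Some of the 15 strongest WDR5WT-only regions lay at or in genes outside the gene lists that are named here after their values were seen, with no theme tested. The end of Nrp1, a semaphorin and VEGF co-receptor gene, had 6536 and 7126, Plxna2, a plexin gene, 5516 and 4883, and Slit2, a ligand of the ROBO receptors, 5324 and 5481 at a site 1414 bp inside the gene. Htr1b, a serotonin receptor gene, had 5085 and 5415, and Dach1, a factor of eye development, 4618 and 5243. Each of these regions was also in clone C9 replicate 1 and in double knockout embryoid body replicate 1. The strongest shared region, at chromosome 17 positions 39842942 to 39848888, had 54370 and 57978 in WDR5WT and 42070 and 44929 in backbone, and lay more than 100 kb from any protein-coding gene end.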
